A study of Mus musculus with 12 samples.

Results

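Pdgfrb codes for the beta chain of the receptor for platelet-derived growth factor (PDGF). Mouse hepatic stellate cells labelled as Pdgfrb-knockout were set against wild-type stellate cells while both were exposed to the ligand PDGF-B. The comparison takes the 6 arrays whose labels give PDGF-B treatment, 3 of Pdgfrb-knockout cells and 3 of wild-type cells, out of 12 arrays in all, and describes every gene detected. Knockout cells came from mice with both Pdgfrb alleles floxed, on the 129S4/SvJae strain, that also carried a Cre transgene from an FVB line under the promoter of GFAP, the glial fibrillary acidic protein. Wild-type cells came from mice with the same floxed alleles and no Cre, so every array in the comparison carries the floxed gene. Cells of both genotypes were isolated from liver by protease digestion and a density gradient, grown with serum, and then moved to serum-free medium with albumin that held 10 ng/ml of PDGF-B. How long the ligand was present, the age of the mice and the share of cells in which Cre had acted are not given in the sources used here. Each array is named by the code in its title (P524, P338 and P522 for knockout, P11, P393 and P530 for wild type), and cells sharing a code are called a preparation. Whether a code marks one mouse, several pooled mice or one culture dish is not stated, so p-values speak only for the spread among the 6 arrays, which may be partly technical.

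Stellate cells are the liver's pericytes. They store vitamin A at rest, and in injury or in culture they become contractile, dividing myofibroblasts that lay down collagen. PDGF-B dimers bring receptor chains together, and the phosphorylated receptor recruits adaptors that feed the Ras-ERK, PI3K-Akt and phospholipase C branches, which induce immediate-early genes, cyclins and lipid synthesis. The beta receptor appears on stellate cells as they activate and is best known there as a driver of division and migration, while the alpha receptor also binds PDGF-B. The comparison therefore addresses which transcripts differ by genotype in the presence of ligand.

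Values are log2 intensities after background correction and quantile normalization, and a difference is always knockout minus wild type on that log2 scale. With 3 preparations in each group the number of arrays limits the precision, and the 95% interval of a difference had a median half-width of 0.28 over the genes. The 12 arrays had median raw intensities of 86.2 to 96.2, with 44.7% to 53.0% of probes above background. A pair of knockout arrays stood apart from the rest. The first principal component of the 6 arrays held 45.1% of the variance and set P524 (score -33.6) against P522 (24.8), with the other knockout array P338 at -0.81 and the wild-type arrays P11, P393 and P530 at 9.12, 5.99 and -5.44. Genotype accounted for 11.04% of the variance among the 6 arrays, with 1 of the 5 degrees of freedom. Of stellate and myofibroblast markers, 15 of 16 measured contractile genes and 9 of 14 measured genes of quiescent stellate cells were above background on all 6 arrays, and so were 18 of 20 genes of macrophages and 9 of 10 of mesothelium. Of hepatocyte genes 3 of 9 were above background on all 6 arrays, and of lymphocyte genes 1 of 5. The quiescence markers Lrat and Gfap were not among the genes measured.

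Pdgfrb, the targeted gene, had log2 intensities of 6.98, 6.52 and 7.74 in knockout cells (P524, P338, P522), against 6.82, 6.92 and 7.80 in wild-type cells (P11, P393, P530). The groups overlapped, and the difference was -0.10 ± 0.39 (SE, unadjusted p = 0.807 by limma). The place of its 1 probe within the transcript, and so whether Cre removes it, is unknown here, and this level does not check the genotype labels. Of the other receptors and ligands, the alpha receptor gene Pdgfra differed by -0.10 ± 0.32 and the ligand gene Pdgfa by 0.03 ± 0.15. All 5 measured genes of this family lay between -0.10 and 0.17, none with groups apart. Among 17 measured signalling proteins downstream of the receptor, 12 differences were above 0 and 5 below, with a median of 0.04 beside 0.01 over all genes, and none had groups apart.

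At an adjusted p under 0.05, 0 of 13299 genes (0%) differed between the genotypes in the fit of the 6 arrays by limma with Benjamini-Hochberg adjustment. At an unadjusted p under 0.05, 80 genes (0.602%) were higher and 64 (0.481%) were lower in knockout cells. Both together are a smaller share than the 0.05 of genes that this threshold passes where nothing differs. When arrays were scaled to a common median in place of quantile normalization, the counts of 80 and 64 became 6 and 74. The share of genes with a difference above 0 then became 36.3%, against 54.4%. Median scaling moved the median of all genes to -0.03. Leaving out P522 gave 431 higher and 215 lower, leaving out P530 146 and 118, and leaving out P524 124 and 101, while leaving out P338 gave 99 lower. In 423 genes (3.18%) the 3 knockout arrays all lay above the 3 wild-type arrays, and in 268 (2.02%) they all lay below. With median scaling these counts were 190 and 336, so the larger count changed side. Genes of either kind are called apart. The 5th and 95th percentiles of all differences were -0.23 and 0.21. Taking all 12 arrays as independent, 2 genes (0.015%) were lower at an adjusted p under 0.05, Cd300ld and Twistnb. That fit counts each preparation once with ligand and once without. With the preparation as a block, at 1 correlation of 0.63 for all genes, Cd300ld and Twistnb were again the 2 genes called. Fits of 12 arrays have 8 residual degrees of freedom, against 4 in the fit of 6 arrays, although genotype varies only between preparations. Their p-values, with or without the block, therefore do not fully allow for arrays that share a preparation.

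**Figure D1:**
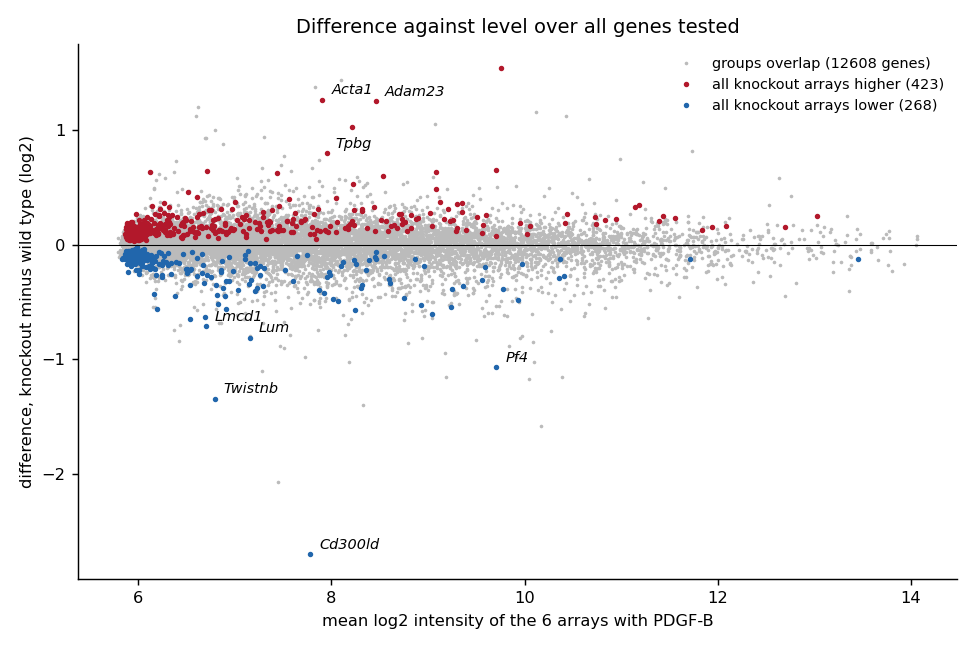
Each point is 1 of 13299 genes, with the mean log2 intensity of the 6 arrays on the x axis and the log2 difference, knockout minus wild type, on the y axis; red and blue points are the 423 and 268 genes whose groups did not overlap, and grey points are genes whose groups overlapped. Cd300ld (-2.70) and Twistnb (-1.34) lie below the other genes with separate groups.

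Cd300ld codes for a member of the CD300 family of myeloid cell-surface receptors. Its log2 intensity was 6.05, 6.52 and 6.72 in knockout cells (P524, P338, P522), against 9.10, 9.48 and 8.82 in wild-type cells (P11, P393, P530). Every knockout array was low, where the lowest level called above background was 5.93 to 5.99, and a gap of 2.09 separated the groups. The means were 6.43 ± 0.34 in knockout and 9.13 ± 0.33 in wild-type cells (SD, n = 3 each), 6.503-fold lower in knockout cells. The log2 difference was -2.70 ± 0.23 (SE), with an adjusted p of 0.295 by limma on 6 arrays, 0.00229 on 12 arrays taken as independent and 2.42e-04 with the preparation as a block. Leaving out any one preparation kept the difference between -2.86 and -2.51, with adjusted p of 0.450 to 0.999996. In RNA from a whole culture, fewer cells of a type and less RNA per cell cannot be told apart. Only the knockout mice carried the Cre transgene from an FVB line. Loss of Pdgfrb and anything that came with that transgene therefore cannot be told apart, for Cd300ld or any other gene.

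The other measured CD300 genes had no such gap. Of 6 measured members, Cd300ld was the 1 member with groups apart, and 5 of 6 differences were below 0 with a median of -0.27, which was -0.05 without P524 and -0.57 without P530. Cd300ld3 differed by -0.68 ± 0.34, and its probes ranged from -0.68 to 0.05. Cd300a, an inhibitory receptor, differed by -0.29 ± 0.51, Cd300lb by -0.24 ± 0.30 and Cd300lf by -0.11 ± 0.09. Cd300c2 was at 6.63, 7.29 and 7.98 in knockout cells and at 7.49, 6.83 and 6.73 in wild-type cells (P11, P393, P530), so its highest array was the knockout preparation P522, in which Cd300ld was at 6.72. Cd300lb, Cd300a, Cd300c2 and Cd300ld3 are also the nearest measured genes of Cd300ld on its chromosome, and the next ones outward, Gprc5c and Rab37, differed by 0.07 and 0.01. CD300 genes have close paralogs, and how far a probe of one also binds another was not tested.

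Macrophage genes were measured beside it because Cd300ld is a myeloid gene. Of 20 measured macrophage and Kupffer cell genes, 17 were lower and 3 higher in knockout cells, with a median difference of -0.24, and 0 of them had groups apart. Their mean log2 intensity was 9.22, 10.04 and 9.99 in knockout cells (P524, P338, P522), against 10.11, 10.06 and 9.84 in wild-type cells (P11, P393, P530). P524 was the low array, and the other knockout arrays lay within the wild-type range. Without P524 the count lower was 10 of 20 and the median 0.03, while the Cd300ld difference was -2.51. Csf1r, the receptor for the macrophage growth factor and the next measured gene to Pdgfrb on its chromosome, differed by -0.41 ± 0.40, the F4/80 gene Adgre1 by -0.46 ± 0.33, and Tyrobp, a signalling partner of myeloid receptors, by -0.56 ± 0.32. All 3 had their lowest value in P524.

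Twistnb encodes one of the subunits of RNA polymerase I, the enzyme that transcribes ribosomal RNA genes. Its log2 intensity was 5.91, 6.09 and 6.36 in knockout cells (P524, P338, P522), against 7.44, 7.55 and 7.38 in wild-type cells (P11, P393, P530). Wild-type arrays were tightly grouped (7.46 ± 0.08) and knockout arrays lay at or near background (6.12 ± 0.22, SD, n = 3 each), with 2 of 3 of them above it. The difference was -1.34 ± 0.13 (SE, 2.53-fold lower, adjusted p = 0.295 by limma on 6 arrays, 0.0127 on 12 arrays and 0.00145 with the preparation as a block). Its 2 probes differed by -1.34 and -1.49, and leaving out any one preparation kept the difference between -1.46 and -1.24, with adjusted p of 0.283 to 0.999996. The RNA polymerase I genes as a list had no common direction. Of 18 measured subunits and factors, Twistnb included, 10 were higher and 8 lower, with a median of 0.01. Their mean log2 intensity was 8.19 to 8.26 on knockout arrays, below the 8.27 to 8.33 on wild-type arrays. The low Twistnb values enter this mean, and the mean without Twistnb was not computed. Ubtf, the upstream binding factor of ribosomal genes, was apart and higher (0.13 ± 0.08), though its probes ranged from -0.02 to 0.13. Ttf1, the terminator factor, was apart and lower (-0.13 ± 0.06). On its chromosome the nearest measured genes of Twistnb were Atxn7l1 (-0.10 ± 0.09) and Ferd3l (0.01 ± 0.07).

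**Figure D2:**
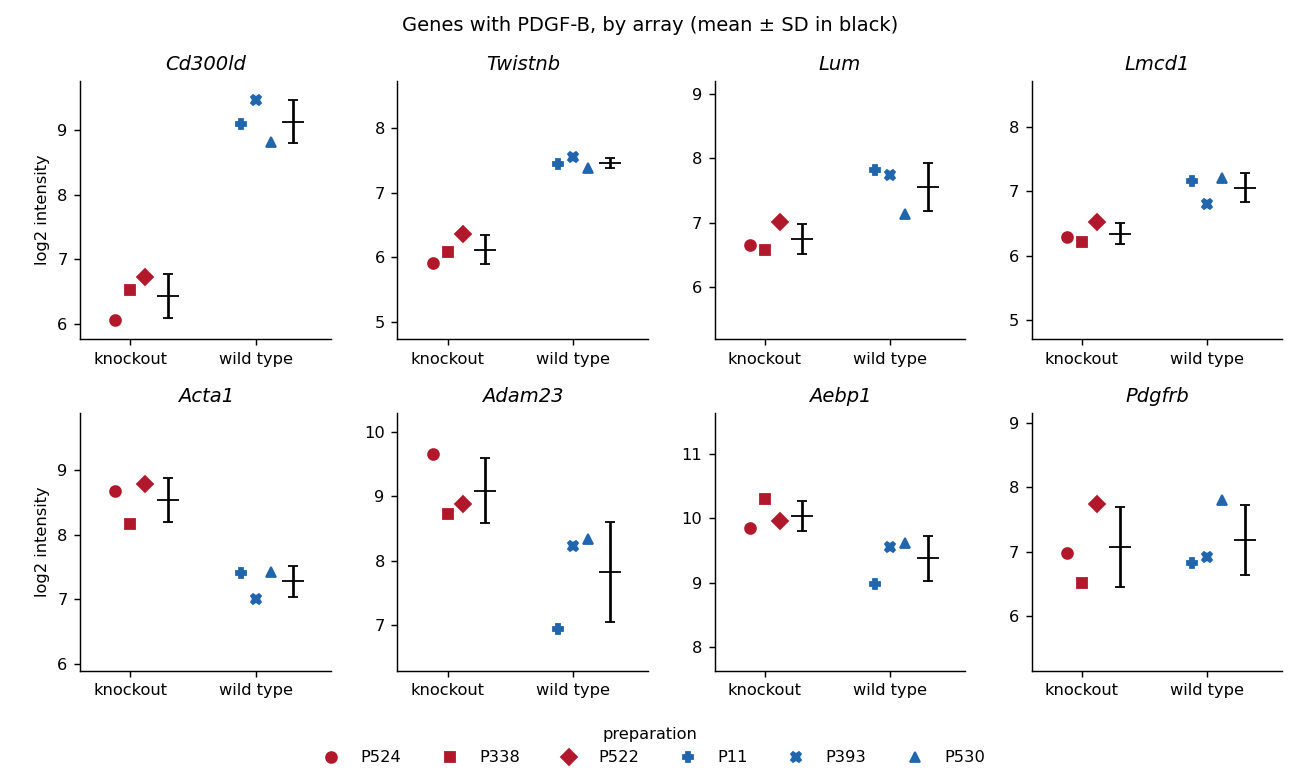
Log2 intensity of 8 genes on the 6 arrays with PDGF-B, with knockout arrays in red at the left and wild-type arrays in blue at the right of each panel, 1 symbol per preparation, and the mean ± SD of each group (n = 3) as black bars. Cd300ld, Twistnb, Lum and Lmcd1 are lower on every knockout array, Acta1, Adam23 and Aebp1 are higher on every knockout array, and the groups of Pdgfrb overlap.

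The same preparations without ligand are given for comparison. Cd300ld averaged 6.37 ± 0.18 in knockout and 9.18 ± 0.24 in wild-type cells (SD, n = 3 each), a difference of -2.80 without PDGF-B beside -2.70 with it. Twistnb averaged 6.21 ± 0.22 in knockout and 7.31 ± 0.13 in wild-type cells, a difference of -1.10 without PDGF-B beside -1.34 with it. Within preparations, the ligand effect on Cd300ld averaged 0.06 in knockout cells and -0.04 in wild-type cells (difference 0.10, exact two-sided permutation test, p = 0.7). Of the genes apart with ligand, 291 of the 423 higher ones also had a difference above 0 without ligand, and 177 of the 268 lower ones a difference below 0. Over all 13299 genes, 7125 had a difference above 0 without ligand and 6174 a difference below 0. The arrays with and without ligand share preparations, so these are not independent observations.

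**Figure D3:**
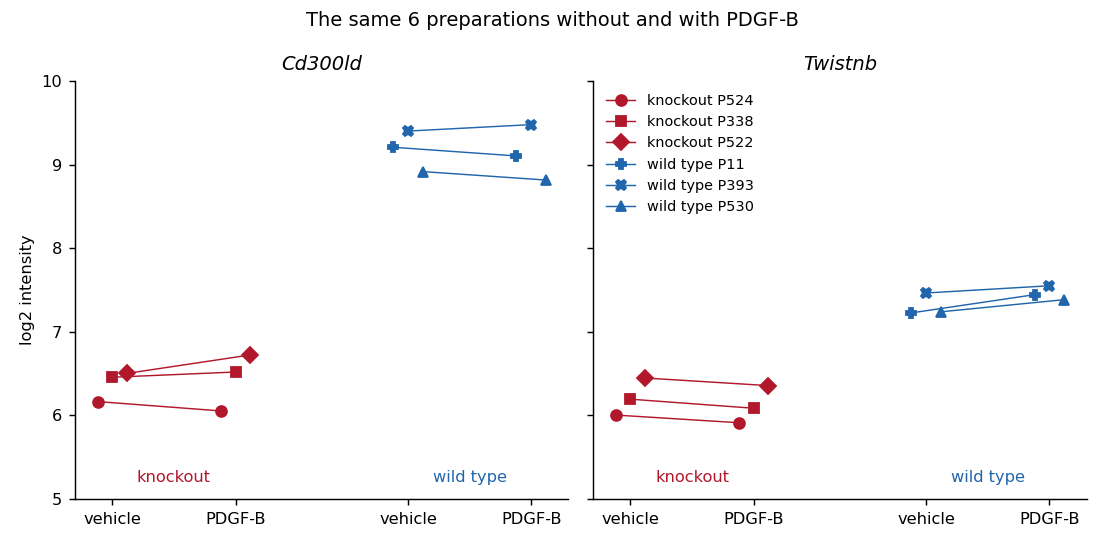
Log2 intensity of Cd300ld and Twistnb in the 6 preparations with vehicle and with PDGF-B, lines joining the arrays of 1 preparation, knockout in red at the left and wild type in blue at the right. With PDGF-B, knockout arrays lie between 6.05 and 6.72 for Cd300ld and between 5.91 and 6.36 for Twistnb, and wild-type arrays between 8.82 and 9.48 and between 7.38 and 7.55.

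Among genes higher in knockout cells, Acta1 had the smallest p. It codes for skeletal muscle alpha actin and was at 8.67, 8.16 and 8.79 in knockout cells (P524, P338, P522), against 7.40, 7.00 and 7.42 in wild-type cells (P11, P393, P530). All knockout arrays exceeded all wild-type arrays by at least 0.73, and the difference was 1.26 ± 0.20 (2.401-fold, unadjusted p = 8.2e-04, adjusted p = 0.9998 by limma). Adam23, a cell-surface protein that binds integrins and lacks protease activity, was at 9.65, 8.72 and 8.88 in knockout cells, against 6.94, 8.22 and 8.33 in wild-type cells, with P11 the low wild-type array (difference 1.25 ± 0.44). Aebp1, a collagen-binding secreted protein of myofibroblasts, was at 9.85, 10.30 and 9.95 in knockout cells, against 8.98, 9.55 and 9.61 in wild-type cells (difference 0.65 ± 0.21). The membrane glycoprotein gene Tpbg differed by 0.80 ± 0.27, the presynaptic protein gene Rims2 by 0.64 ± 0.26, the tetraspan gene Emp2 by 0.63 ± 0.20, the phosphatase gene Ptprv by 0.63 ± 0.22 and the proprotein convertase gene Pcsk6 by 0.53 ± 0.21, while the second probe of Pcsk6 differed by -0.12. Smaller differences with low p were found for the calcium channel gene Itpr3 (0.30), the exocyst gene Exoc7 (0.34), the death-associated kinase gene Dapk2 (0.31), the mitochondrial translation factor gene Tsfm (0.24), the epoxide hydrolase gene Ephx1 (0.33) and the focal adhesion kinase relative Ptk2b (0.29). Irgq (0.30), the RNA-binding protein gene Pcbp2 (0.35) and Wwtr1 (0.26), which codes for the Hippo effector TAZ, each had another probe below 0. None of these genes passed an adjusted p of 0.05.

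Lum and Lmcd1 had the largest differences among genes lower in knockout cells with groups apart and an unadjusted p under 0.05, after Cd300ld and Twistnb. Lum codes for lumican, a proteoglycan that spaces collagen fibrils. It was at 6.65, 6.58 and 7.01 in knockout cells (P524, P338, P522), against 7.81, 7.73 and 7.13 in wild-type cells (P11, P393, P530), with a gap of 0.13 between P522 and P530 (difference -0.81 ± 0.21, unadjusted p = 0.00903, adjusted p = 0.9998 by limma). Both of its probes were lower. Lmcd1, a cofactor of GATA factors in muscle, was at 6.29, 6.21 and 6.52 in knockout cells, against 7.16, 6.80 and 7.21 in wild-type cells (-0.71 ± 0.14), and its 3 probes differed by -0.71 to -0.22. Parvg, a haematopoietic parvin that links integrins to actin, differed by -0.63 ± 0.14, the X-linked homeobox gene Rhox5 by -0.65 ± 0.18, and Cybc1, a chaperone of the phagocyte oxidase, by -0.49 ± 0.14. The homeobox gene Hoxb4 (-0.47), the chaperone gene Hsp90aa1 (-0.38), the peptidase gene Cpq (-0.30) and Pdap1 (-0.54), whose product is a PDGF-associated protein, followed. The mitochondrial flavoprotein gene Aifm1 (-0.40) and the ribosomal protein gene Rpl30 (-0.52) each had a second probe at 0.02.

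Differences beyond 1 on the log2 scale were found for 23 genes, 11 higher and 12 lower, and in 16 of them the groups overlapped. Single arrays carried several of these. The genes named in this paragraph were chosen after their values were seen. In knockout cells the water channel gene Aqp1 was at 7.23, 6.93 and 11.39 (P524, P338, P522), against 7.57, 6.98 and 6.88 in wild-type cells. The retinoic acid-binding protein gene Crabp1 was at 6.04, 6.03 and 9.59 in knockout cells, against 6.09, 5.95 and 6.01 in wild-type cells. P522 was likewise the highest array for the BMP antagonist gene Grem1 (11.74 in P522, against 6.59 to 8.37 in wild-type cells) and for Wnt10a (9.38 in P522, against 5.92 to 6.22 in wild-type cells). Without P522 the differences were -0.07 for Aqp1 and -0.03 for Grem1. Of the 7 genes beyond 1 with groups apart, Mgp, an inhibitor of calcification, was at 10.43, 10.44 and 10.71 in knockout cells, against 7.36, 9.53 and 10.07 in wild-type cells, where P11 was low. The peroxisomal carrier gene Slc25a17 was at 8.62, 8.69 and 8.88 in knockout cells, against 8.20, 8.30 and 6.60 in wild-type cells, where P530 was low. Pf4, a platelet chemokine gene that macrophages also express, was at 8.96, 9.24 and 9.32 in knockout cells, against 11.51, 9.84 and 9.37 in wild-type cells, where P11 was high.

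Lists of immediate-early genes, ERK feedback genes, FoxO targets and amino acid stress genes had median differences between -0.04 and 0.03 while ligand was present. Single members differed by more, in either direction. Of 20 measured immediate-early genes 13 were lower and 7 higher, with a median of -0.03, and 1 was apart, Fosb, an AP-1 subunit (0.13 ± 0.07), with 3 knockout arrays and 1 wild-type array above background. The AP-1 gene Fos was at 8.31, 8.07 and 8.21 in knockout cells, against 8.92, 8.77 and 7.83 in wild-type cells (P11, P393, P530), and the groups overlapped (-0.31 ± 0.29). The zinc-finger gene Egr1 differed by 0.00 ± 0.25 and Myc by -0.02 ± 0.07, and Klf6, a Kruppel-like factor of activated stellate cells, by -0.64 ± 0.38 with P524 the low array at 10.06. Of 18 measured ERK feedback genes and targets of ETV factors, 11 were higher and 7 lower (median 0.03). The inhibitors Spry4 (0.09 ± 0.07) and Spred3 (0.07 ± 0.06) were apart and higher, Spred3 on no wild-type array above background, while Phlda1, chosen after its value was seen, had an unadjusted p of 0.0367 with overlapping groups (-0.52 ± 0.20). Of 19 measured targets of FoxO factors, which Akt keeps out of the nucleus, 10 were lower and 9 higher (median -0.04), and the pseudokinase gene Trib1 was apart and lower (-0.21 ± 0.07), with its second probe at 0.05. Leaving out 1 preparation put the median between -0.05 and 0.02 for immediate-early genes and between -0.05 and 0.03 for FoxO targets. In the amino acid stress response, the stress sensor gene Sesn2 was the 1 of 18 members apart (-0.36 ± 0.12), and 11 of the 18 were lower (median -0.03), against 18 of the 18 without P11 and 7 of the 18 without P338 or P530.

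Cell cycle genes lay slightly higher in knockout cells, without separating the groups. Of 33 measured genes for G1/S entry and replication of DNA, 30 were higher and 3 lower, with a median of 0.13 beside 0.01 over all genes, and 1 was apart, the helicase subunit gene Mcm2 (0.14 ± 0.08). Their mean log2 intensity was 7.74, 7.63 and 7.42 in knockout cells (P524, P338, P522), against 7.28, 7.70 and 7.46 in wild-type cells (P11, P393, P530). Of 23 measured G2/M genes, 20 were higher and 3 lower (median 0.17), and none were apart. Their mean was 7.90, 7.86 and 7.35 in knockout cells, against 7.43, 7.88 and 7.40 in wild-type cells, so 3 arrays were high and 3 low and each genotype had both. Leaving out P11 gave 20 higher of 33 and a median of 0.04 for G1/S genes, and leaving out P524 gave 22 of 33 and 0.05. For G2/M genes, leaving out P524 or P530 gave 14 of 23 each, with medians of 0.05 and 0.06, and leaving out P11 or P338 medians of 0.07 each. Leaving out P522 or P393 moved G2/M genes the other way, to 22 and 21 of 23 with medians of 0.44 and 0.39 and 5 genes apart each, and gave medians of 0.21 and 0.19 for G1/S genes. Over all 13299 genes, 1587 were apart and higher without P522 and 854 without P393. The bright G2/M genes Kif23, a kinesin of cytokinesis, and Cenpa, the centromeric histone, differed by 0.04 ± 0.34 and 0.08 ± 0.44. The cyclin gene Ccnd1 was at 11.29, 10.89 and 12.29 in knockout cells, against 11.19, 11.34 and 11.62 in wild-type cells (0.11 ± 0.36). Of 15 measured D-type cyclins and CDK inhibitors 10 were higher and 5 lower (median 0.04), and without P524 or P522 the count higher was 7. The CDK4/6 inhibitor gene Cdkn2c was apart and higher, at 8.01 on each of the 3 knockout arrays, against 7.38, 7.90 and 7.82 in wild-type cells (0.31 ± 0.14).

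Cholesterol synthesis genes had differences below 0 in all 18 measured members, with 1 knockout array low. The median difference was -0.39, 0 of 18 were apart, and the members' mean log2 intensity was 8.27, 8.22 and 7.24 in knockout cells (P524, P338, P522), against 7.88, 8.44 and 8.49 in wild-type cells (P11, P393, P530). P522 was the low array, and the other knockout arrays lay within the wild-type range, above P11 and below P393 and P530. Without P522, 8 of 18 were lower and the median was 0.01. Without the wild-type array P11, 18 of 18 were lower and 8 were apart and lower (median -0.57). Over all 13299 genes, 654 were apart and lower without P11. The prenyl synthase gene Fdps was at 11.33, 10.99 and 8.90 in knockout cells, against 10.40, 11.08 and 11.29 in wild-type cells (-0.52 ± 0.66). Nsdhl, a sterol dehydrogenase gene, was at 8.14, 7.72 and 6.62 in knockout cells, against 7.52, 8.91 and 8.27 in wild-type cells (-0.74 ± 0.50). Stard4, a sterol carrier gene, was at 7.72, 8.35 and 7.58 in knockout cells, against 8.03, 8.59 and 8.97 in wild-type cells (-0.65 ± 0.30). The ketoreductase gene Hsd17b7 differed by -0.55 ± 0.58, with its second probe at 0.01. The lanosterol synthase gene Lss differed by -0.51 ± 0.50, with its second probe at 0.15. Of 12 measured fatty acid synthesis genes, 12 were below 0 with a median of -0.12, 0 were apart, and P522 was again lowest. Without P522, 4 of 12 were lower. P522 was also low for mesothelial genes, whose mean was 9.28, 9.34 and 7.10 in knockout cells, against 8.60, 8.54 and 8.18 in wild-type cells. The mesothelial uroplakin gene Upk3b was at 12.52, 12.39 and 9.31 in knockout cells, against 11.46, 11.48 and 10.34 in wild-type cells. The part of these other cells in the lipid gene levels was not tested.

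**Figure D4:**
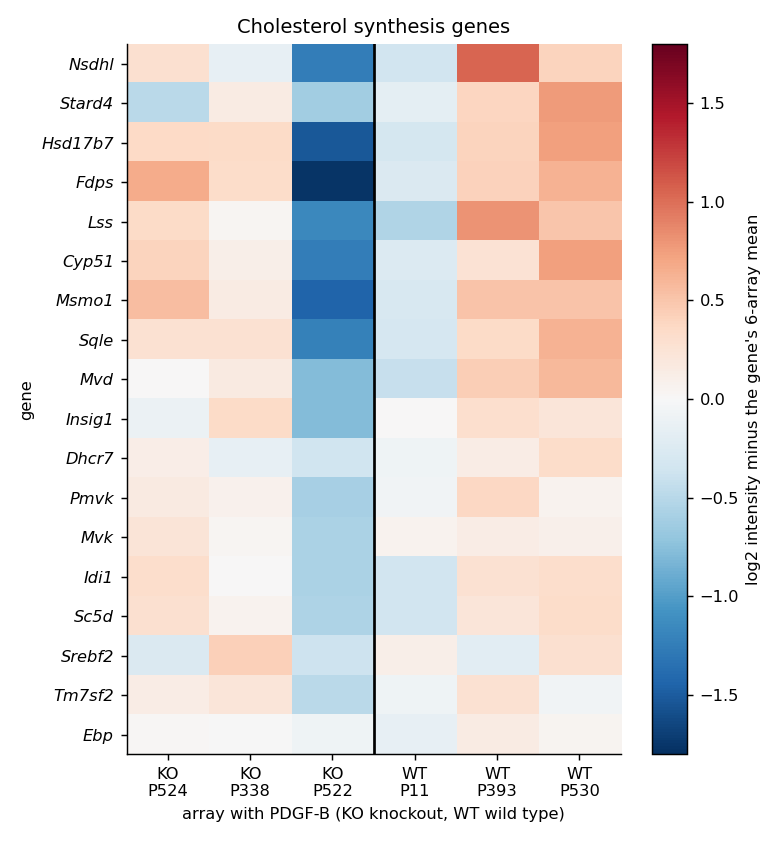
Colour gives the log2 intensity of each of 18 cholesterol synthesis genes (rows) minus its mean over the 6 arrays, with the 3 knockout arrays at the left and the 3 wild-type arrays at the right of the black line. The knockout array P522 is the bluest column for most genes, and the knockout arrays P524 and P338 and the wild-type arrays P393 and P530 are mostly pale or red.

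Because these genes varied together from array to array, their promoters were read from RefSeq for assembly GRCm38.p6, as the 250 bases before each annotated start of a gene. A window was found for 15 of the 18 genes, and the 3 printed here had the lowest differences among those 15. Nsdhl lies at chrX:72918271-72918520 on the plus strand, Hsd17b7 at chr1:169969206-169969455 on the minus strand and Lss at chr10:76531355-76531604 on the plus strand. Capitals mark CCAAT, or ATTGG where it is on the opposite strand, the box bound by the factor NF-Y, which is known to act beside the sterol-sensing SREBP factors.
Nsdhl: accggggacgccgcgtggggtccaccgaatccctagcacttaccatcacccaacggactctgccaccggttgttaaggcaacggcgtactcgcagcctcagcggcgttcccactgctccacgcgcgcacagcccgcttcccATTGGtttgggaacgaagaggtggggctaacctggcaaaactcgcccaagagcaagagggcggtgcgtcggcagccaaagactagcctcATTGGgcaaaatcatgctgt
Hsd17b7: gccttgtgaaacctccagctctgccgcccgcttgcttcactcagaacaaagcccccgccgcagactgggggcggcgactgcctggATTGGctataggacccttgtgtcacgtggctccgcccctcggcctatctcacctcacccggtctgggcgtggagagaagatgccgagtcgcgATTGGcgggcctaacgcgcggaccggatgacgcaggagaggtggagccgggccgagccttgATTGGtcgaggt
Lss: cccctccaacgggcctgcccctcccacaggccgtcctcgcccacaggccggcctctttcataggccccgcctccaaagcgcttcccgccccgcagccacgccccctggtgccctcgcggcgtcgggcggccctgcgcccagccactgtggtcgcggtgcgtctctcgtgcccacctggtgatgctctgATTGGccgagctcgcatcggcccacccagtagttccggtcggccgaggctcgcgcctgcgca
The box stood in 2 places in the Nsdhl window, in 3 in that of Hsd17b7 and in 1 in that of Lss. A gene with several starts was counted where any of its windows held the box on either strand. So counted it was present in 15 of 15 cholesterol genes, although at least 1 of the 3 windows of Dhcr7 held none. The box was in 37.5% of 27025 genes with a window. Of other lists, it was in 6 of 9 fatty acid genes, 15 of 20 G2/M genes and 57.1% of 28 G1/S genes. The letters TCACNCCAC, a form of the sterol response element, were, on both strands, in 0 of the 15 genes and in 1.22% of all. These matches describe letters in the window and are not measured binding sites.

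**Figure D5:**
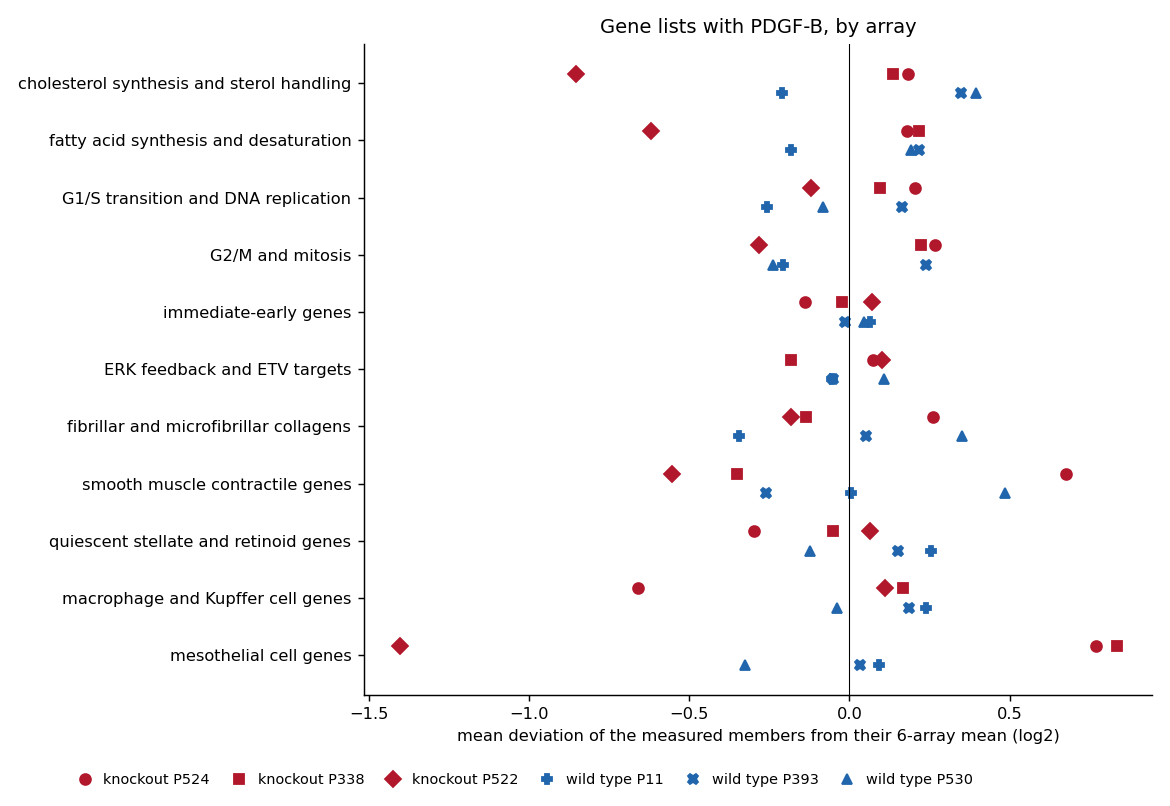
For 11 gene lists (rows), each symbol is the mean over measured members of the log2 intensity minus the member's 6-array mean, for 1 array, with knockout arrays in red above wild-type arrays in blue. P522 is the leftmost symbol for cholesterol, fatty acid and mesothelial genes, P524 is the leftmost for macrophage genes, and in no row do the 2 genotypes separate.

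Matrix genes showed no common direction. Of 11 measured fibrillar and microfibrillar collagens, 6 were higher and 5 lower (median 0.03), and leaving out 1 preparation put the median between -0.23 and 0.11. Col1a1, the main fibrillar collagen chain, was at 10.70, 9.90 and 9.95 in knockout cells (P524, P338, P522), against 9.17, 10.18 and 10.99 in wild-type cells (P11, P393, P530), and the groups overlapped (0.07 ± 0.48). Col3a1 was at 10.99, 9.71 and 8.996 in knockout cells, against 9.65, 11.10 and 11.21 in wild-type cells (-0.75 ± 0.63). Col14a1, a collagen that binds to the surface of fibrils, was apart and lower, at 6.86, 6.85 and 6.79 in knockout cells, against 7.57, 7.06 and 7.07 in wild-type cells (-0.40 ± 0.15), and both its probes were lower. Col5a3 was apart and higher (0.10 ± 0.07) at a level close to background. Among 18 measured matricellular genes 13 were lower and 5 higher (median -0.08), and Lum was the 1 member apart, while without P530 8 of the 18 were lower (median 0.05). Dcn, the proteoglycan decorin, differed by -0.45 ± 0.21, and Tnc, the glycoprotein tenascin C, by -0.11 ± 0.22. Of 16 basement membrane genes 11 were higher and none were apart (median 0.09). Without P524, 6 of the 16 were higher and 3 were apart and lower (median -0.09), and without P522, 5 were apart and higher (median 0.21). Over all 13299 genes, 881 were apart and lower without P524 and 1587 apart and higher without P522. Among 16 metalloproteinases and their inhibitors 10 were lower and none were apart (median -0.09), while without P530 7 of the 16 were lower (median 0.20). Among them Timp1 was at 12.13, 12.47 and 12.79 in knockout cells, against 11.98, 12.06 and 13.18 in wild-type cells (0.05 ± 0.36). The gelatinase gene Mmp2, chosen after its value was seen, was at 11.23, 10.34 and 10.54 in knockout cells, against 8.56, 9.64 and 10.42 in wild-type cells (1.16 ± 0.50, unadjusted p = 0.0592). Of 17 measured TGF-beta ligands, receptors and targets 10 were lower and 7 higher, and Acvrl1, the type I receptor ALK1, was the 1 apart (-0.26 ± 0.09).

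Most myofibroblast and pericyte markers had overlapping groups. Of 16 measured contractile genes 10 were lower and 6 higher (median -0.08), and 1 was apart, Cald1, the actin-binding caldesmon, at 8.95, 8.72 and 8.53 in knockout cells, against 9.06, 8.99 and 9.96 in wild-type cells (-0.60 ± 0.28), with its 5 probes at -0.60 to -0.07. Without P524, the high knockout array, 15 of the 16 were lower and 7 were apart and lower (median -0.43), and without P530, 11 of the 16 were higher (median 0.07). Over all 13299 genes, 881 were apart and lower without P524. Acta2, the smooth muscle actin that marks myofibroblasts, was at 13.88, 14.12 and 13.54 in knockout cells, against 14.09, 13.91 and 14.05 in wild-type cells (-0.17 ± 0.16). Tagln, the actin-bundling transgelin, and Des, the stellate cell filament desmin, differed by 0.06 ± 0.59 and 0.13 ± 0.62, with P524 the highest array for both. Of 8 measured pericyte markers 6 were higher, and Notch3, a Notch receptor of mural cells, was apart (0.18 ± 0.08). Of 14 measured genes of quiescent stellate cells and retinoid handling 11 were lower and 3 higher (median -0.11), with none apart. Without P524, 7 of the 14 were lower (median 0.007), and without P530, 12 were lower and 4 apart and lower (median -0.28). Over all 13299 genes, 903 were apart and lower without P530. The quiescence list also holds Cygb, the stellate cell globin, chosen after its value was seen. Cygb was at 6.93, 7.71 and 8.09 in knockout cells, against 7.04, 8.62 and 8.54 in wild-type cells (-0.49 ± 0.51).

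Chemokine and NF-kappaB target genes lay mostly below 0, and this rested on the knockout array P524. Of 28 measured chemokines and cytokines 20 were lower and 8 higher (median -0.09), with Pf4 the 1 member apart, and of 17 NF-kappaB targets 13 were lower (median -0.11) with none apart. Of 26 interferon response genes 15 were lower and 11 higher (median -0.03), and Ifit2, an interferon-induced antiviral gene, was apart and higher (0.22 ± 0.12). Without P524, which was also the low array for macrophage genes, 15 of 28 chemokines and cytokines (median -0.02), 8 of 17 NF-kappaB targets (median 0.03) and 8 of 26 interferon genes (median 0.04) were lower. Without P11, 9 of 17 NF-kappaB targets were lower (median -0.04), and without P393, 11 of 26 interferon genes (median 0.02). The part of the macrophage genes in these lists was not tested.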

How the data were processed

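Illumina BeadChips with 1 colour measured total RNA from cultured stellate cells. Of the intensity tables the authors deposited, the one without normalization, on a linear scale, was the start here, and the normalized one was an alternative. No label or header used here says how the scans were read. Groups come from the labelled genotype and ligand.

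All 12 arrays (45281 probes) went through normexp background correction with an offset of 50 and quantile normalization, and log2 was taken, in limma 3.58.1 (R 4.3.3, statmod 1.5.0). No detection p-values were in the tables used here, so values under the mode of an array were mirrored to give its background, and 26247 probes above it at p under 0.05 on at least 3 arrays were kept. GEO's platform annotation gave 1 symbol for 34885 probes, several for 18 and none for 10378. The brightest kept probe stood for each of 13299 genes, and 5500 genes had several kept probes.

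The fit (lmFit, eBayes) used the 6 arrays with PDGF-B, 3 against 3, with 4 residual degrees of freedom and adjustment over all genes. Arrays of 1 code correlated in their deviations from group means at r = 0.58 to 0.93 across genes, so codes were taken to pair arrays with and without ligand. The codes come from the titles and pair no knockout with a wild-type sample. Alternatives were the 12-array fits with and without the preparation as a block, other background correction, scaling, filters, probe averaging, prior and array weights, and leaving out each preparation. The fit was tested on simulated data.

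The comparison, the 37 gene lists (714 entries, 586 measured), the tests and the rule for named genes were chosen with earlier results of these data known. Named were a panel (Pdgfrb, Pdgfra, Acta2, Tagln, Des, Col1a1, Col3a1, Timp1, Tnc, Ccnd1, Fos, Egr1, Myc), genes called in any of the fits of 6 or 12 arrays, genes apart with the smallest p or largest difference, and, per list, members apart or brightest. Chosen after their values were seen were Adgre1, Csf1r, Tyrobp, Nsdhl, Hsd17b7, Lss, Stard4, the CD300 family beside Cd300ld, and those so named in the text. Lists on hypoxia, chaperones, NRF2, collagen crosslinking, integrins and ribosome biogenesis had medians of -0.01 to 0.06 with 0 members apart, and hepatocyte, lymphocyte, endothelial, cholangiocyte and portal fibroblast markers likewise had 0 apart.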

Additional observations from a re-analysis of the deposited data

Results flagged for a closer look

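The ligand effect on Twistnb had opposite signs in the 2 genotypes, in every preparation. Within preparations, PDGF-B minus vehicle was -0.09, -0.11 and -0.09 in knockout cells (P524, P338, P522), against 0.22, 0.09 and 0.15 in wild-type cells (P11, P393, P530). The difference between the genotypes in this ligand effect was -0.25 on the log2 scale (exact two-sided permutation test, p = 0.1, the smallest that 3 against 3 can give). Only Cd300ld and Twistnb were tested in this way, as genes called lower in knockout cells with ligand. Those same values enter the ligand effect and favour a difference below 0, so the test is not independent of the choice. All 3 knockout preparations were lower with ligand and all 3 wild-type preparations higher. Knockout values lay at or near background, with 2 of the 3 arrays with ligand above it, so a ligand effect in knockout cells is poorly measured.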

How the results depend on the processing

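The number of genes at an adjusted p under 0.05 was 0 in the fit of 6 arrays and 2 (Cd300ld and Twistnb) in 3 alternatives, which were 12 arrays taken as independent, 12 arrays with the replicate block of the preparation, and array weights. It was 0 in the other 13, leaving out any preparation included. Cd300ld had adjusted p of 2.42e-04 to 0.999996 and Twistnb of 0.00145 to 1 over all alternatives. Genes apart and higher, 423, became 190 with median scaling, 721 with no filter on dim probes and 854 to 1587 without 1 preparation. Genes apart and lower, 268, became 336 with median scaling, 501 with no filter and 622 to 952 without 1 preparation. With 5 arrays, groups separate more often by construction. Genes at an unadjusted p under 0.05 and higher, 80, became 125 on 12 arrays, 6 with median scaling, 196 with no filter, 48 with a stricter filter, 458 with array weights and 64 to 431 without 1 preparation, the highest without P522. Those lower, 64, became 115 with no filter, 315 with array weights and 53 to 215 without 1 preparation. The cause of these shifts was not tested.

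Counts of list members without each preparation were chosen after seeing the data. Without P522, 8 of 18 cholesterol and 4 of 12 fatty acid genes were lower, and without P524, 10 of 20 macrophage genes. Without P11, 18 of 18 cholesterol genes were lower. Of 87 named genes, 66 kept their direction in every one of 16 alternatives that measured them. Much of this count was fixed in advance. A gene with groups apart cannot change direction when 1 preparation is left out, and many genes were named for being apart. The 12-array fits and the other prior change the error of a difference and not the difference itself. Ranges on leaving out 1 preparation that cross 0 were -0.43 to 0.21 for Pdgfrb, -0.35 to 0.22 for Pdgfra, -0.51 to 0.50 for Tagln, -0.26 to 0.82 for Des, -0.40 to 0.51 for Col1a1, -0.16 to 0.44 for Timp1, -0.30 to 0.10 for Tnc, -0.29 to 0.41 for Ccnd1, -0.17 to 0.24 for Egr1, -0.0487 to 0.00292 for Myc, -0.98 to 0.24 for Fdps, -0.87 to 0.0770 for Hsd17b7, -0.19 to 0.45 for Kif23, -0.21 to 0.48 for Cenpa, -0.24 to 1.36 for Upk3b, -0.12 to 0.14 for Pdgfa, -0.66 to 0.20 for Cd300a, -0.0527 to 0.62 for Cd300c2, -0.0651 to 2.17 for Aqp1 and -0.0289 to 2.56 for Grem1. Median scaling gave -0.0219 for Tagln, -0.0213 for Col1a1, -0.0551 for Timp1, -0.0657 for Kif23 and -0.0584 for Pdgfa. Array weights gave 0.0348 for Acta2, -0.0676 for Tagln, -0.0144 for Col1a1, 0.22 for Tnc, -0.30 for Ccnd1, 0.0152 for Myc and -0.15 for Pdgfa. Twistnb in knockout cells was above background on 2 of 3 arrays with ligand, which limits how well its difference is sized.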
